A study of Mus musculus with 24 samples.

Results

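The Ly6 genes described here are Ly6a, Ly6c1, Ly6c2, Ly6e and Ly6i, 5 of the 32285 genes in the count matrix. The family was chosen by its behaviour in CD8 T cells, where Ly6c2 and Ly6a were higher after vaccination with PancVAX, so the values of that contrast are given as a description and were not tested. Values of CD8 T cell states and of thinned shares in CD8 T cells repeat this contrast and are a description as well. Comparisons between antibodies and between preparations use contrasts that the choice did not rest on. Comparisons with PancVAX in other classes use the same contrast and pools in other cells. Transcripts of CD8 T cells in those classes would carry the selected difference, and their part was not tested. The comparison of clones uses another contrast, but within CD8 T cells of the same pools.

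Male C57BL/6 mice, 6 to 7 weeks old, carried subcutaneous tumors of Panc02, a mouse pancreatic cancer line. The 8 treatments were an isotype control, anti-PD-1, anti-CTLA-4, anti-PD-1 with anti-CTLA-4, and each of these 4 again with PancVAX, a peptide vaccine against neoantigens of Panc02. PancVAX was given on days 12 and 19 together with the adjuvant AddaVax and a STING agonist, so that an effect of the peptides and one of the adjuvants cannot be told apart. Anti-PD-1 (100 ug) was given 2 times a week from day 12 and anti-CTLA-4 (100 ug) on days 15 and 22, and tumors were taken on day 38. Mice of a treatment were pooled, and each treatment gave 1 whole-tumor library, from all dissociated cells, and 1 Percoll library, from cells separated on a density gradient to enrich leukocytes, 16 RNA libraries in all. Each preparation was sequenced as its own batch, so preparation and batch cannot be told apart. The 2 libraries of a treatment were added up to a pool, and PancVAX was compared over 4 pools with and 4 pools without it. The labels do not say that the libraries of a treatment came from separate mice, and the spread between pools also contains the differences between the antibodies.

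Ly6 proteins are small cell surface proteins held in the membrane by a glycosylphosphatidylinositol (GPI) anchor and folded as the Ly6/uPAR domain. Ly6a encodes Sca-1, a marker of stem and progenitor cells that lymphocytes and endothelial cells also carry and that interferon induces. Ly6c1 and Ly6c2 encode the Ly6C proteins, which mark inflammatory monocytes and antigen-experienced and memory CD8+ T cells, and the Ly6C of endothelium. Ly6e is a broadly expressed, interferon-inducible member, and Ly6i is an interferon-inducible member described in myeloid cells.

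The 5 genes lie within 157 kb of chromosome 15 (GRCm38). Ly6e (ENSMUSG00000022587) spans chr15:74955025-74959904, Ly6i (ENSMUSG00000022586) chr15:74979534-74983434, Ly6a (ENSMUSG00000075602) chr15:74994877-74998031, Ly6c1 (ENSMUSG00000079018) chr15:75044018-75048920 and Ly6c2 (ENSMUSG00000022584) chr15:75108161-75112066. Ly6c1 and Ly6c2 are separated by 59.2 kb and are near-identical copies, so reads that fit both may have been dropped or split when they were counted, and the level of each is uncertain to that extent. The promoters of this pair are shown because the 2 genes were high in different cell classes. RefSeq lists 2 starts for each gene, and the windows shown are the pair with the highest identity of the 4 combinations. They are RefSeq sequences of GRCm38.p6 on the minus strand, from 250 bases before to 50 bases after the start, at chr15:75048788-75049087 and chr15:75111922-75112221. Capitals mark the match to the RUNX motif TGTGGT.
Ly6c1: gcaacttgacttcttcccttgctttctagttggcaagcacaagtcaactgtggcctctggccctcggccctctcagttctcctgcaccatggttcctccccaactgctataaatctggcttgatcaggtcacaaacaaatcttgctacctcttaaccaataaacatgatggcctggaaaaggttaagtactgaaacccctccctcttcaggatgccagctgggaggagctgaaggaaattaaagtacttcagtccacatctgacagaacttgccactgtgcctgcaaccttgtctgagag
Ly6c2: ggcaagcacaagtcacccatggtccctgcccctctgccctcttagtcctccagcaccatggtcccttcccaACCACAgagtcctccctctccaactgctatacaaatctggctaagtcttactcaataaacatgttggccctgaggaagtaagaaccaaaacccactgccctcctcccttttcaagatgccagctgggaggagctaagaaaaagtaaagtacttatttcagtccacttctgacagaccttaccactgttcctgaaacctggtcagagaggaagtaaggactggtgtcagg

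In a global alignment both windows were identical at 213 of 335 aligned columns (63.6%), 70 of which were gaps, and the other 3 combinations of starts gave 45.1% to 51.2%. The motifs searched on both strands were the STAT site GAS (TTCNNNGAA, in 8.29% of 32817 RefSeq promoters of this length), the interferon element ISRE (3.43%), RUNX (16.8%) and AGATAA, the core bound by GATA factors (11.2%). The single match in the windows shown was RUNX in the Ly6c2 window, as ACCACA at bases 72 to 77, with its first base at position -179 from the start site. A match of letters is a description and not a binding site. For Ly6a, Ly6e and Ly6i no promoter was printed.

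Of 144994 barcodes, 57355 (39.6%) passed the filters, from libraries of 77132398 to 176233225 unique molecular identifiers (UMIs). Levels are given in CPM, depth-scaled counts, which are the UMIs of a gene divided by all UMIs of the cells of a class in a pool or library, on the usual scale. A UMI stands for a transcript molecule read at its 5′ end, so CPM carry no length term. Classes were named from markers, and CD8 T cells were T cells with a Cd8a or Cd8b1 UMI and no Cd4 UMI. Each pair of libraries shared between 5 and 45 cell barcodes, at most 1.26% of the smaller library. The endothelial-like cells of the Percoll library of PancVAX alone stood apart, with 358 cells and 2723 summed CPM of the 21 endothelial markers against 16847 to 23782 CPM in whole-tumor libraries, so the main endothelial values are also given without it.

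Each gene had its own distribution over cell classes. Ly6e was broad and did not fall below a mean of 825.6 CPM in any ranked class, whereas Ly6c1 belonged to endothelial-like and fibroblast-like cells, Ly6c2 to plasmacytoid dendritic-like, CD8 T and monocyte-like cells, and Ly6i to monocyte-like and neutrophil-like cells. These levels are means over libraries with at least 10 cells of the class, and classes were compared as a description. Keratinocyte-like cells, with 2 such libraries (Ly6e 770.7 ± 736 CPM), were not ranked. The libraries of plasmacytoid dendritic-like cells that were ranked held only 10 to 14 cells each.

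**Figure D1:**
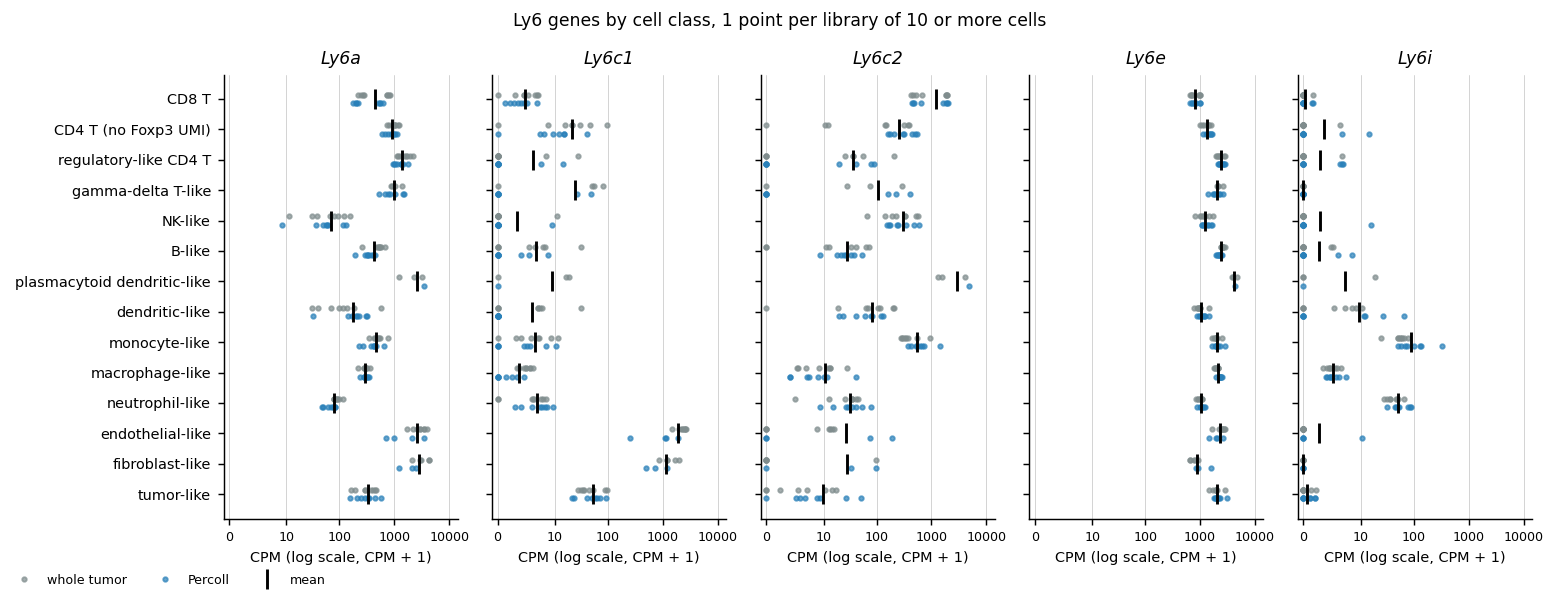
Levels of the 5 Ly6 genes in CPM (log axis of CPM + 1) by cell class, with 1 point per library of at least 10 cells, whole tumor in grey and Percoll in blue, and the mean as a bar. Ly6e lies near or above 1000 CPM in most classes, and Ly6c1 and Ly6c2 are high in different classes.

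Ly6a, the gene of Sca-1, was highest in fibroblast-like cells at 2805 ± 1061 CPM (SD, n = 8 libraries), followed by plasmacytoid dendritic-like cells at 2555 ± 1032 CPM (n = 4) and endothelial-like cells at 2537 ± 1033 CPM (n = 12). Without the library that stood apart the endothelial-like mean was 2703 ± 898 CPM (n = 11). Among fibroblast-like pools with PancVAX, that of PancVAX with anti-PD-1 was at 1200 CPM and the others at 3333 to 3983 CPM. Fibroblast-like, plasmacytoid dendritic-like and endothelial-like cells did not differ beyond their spread. Regulatory-like CD4 T cells followed at 1400 ± 361 CPM (n = 16), then gamma-delta T-like cells at 989.9 CPM and CD4 T cells without a Foxp3 UMI at 924.3 CPM. CD8 T cells (446.6 CPM), monocyte-like cells (456.5 CPM) and B-like cells (423.3 CPM) had similar means over all libraries, but their order depended on the group: over pools they were at 658.6, 411.6 and 393.6 CPM with PancVAX and at 222.9, 516.1 and 449.7 CPM without. Neutrophil-like (79.7 CPM) and NK-like cells (70.3 CPM) had the lowest means among the named classes.

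Ly6c1 was at 1858 ± 737 CPM in endothelial-like cells (n = 12 libraries; 2004 ± 562 CPM without the library that stood apart, n = 11) and at 1141 ± 477 CPM in fibroblast-like cells (n = 8). The next named class was tumor-like cells at 52.0 ± 24.6 CPM (n = 16), a step larger than the spread of both. Among fibroblast-like pools with PancVAX, that of PancVAX with anti-PD-1 was at 518.5 CPM of Ly6c1 and the others at 1304 to 1450 CPM. The fibroblast-like libraries held 578.4 (Percoll) and 914.1 (whole tumor) summed CPM of the 21 endothelial markers, and the part of such transcripts in their Ly6c1 was not tested. In CD8 T cells Ly6c1 was near 0, with 92 UMIs among 9854 cells.

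Ly6c2 was high in other classes. It was highest in plasmacytoid dendritic-like cells at 2926 ± 1745 CPM (n = 4 libraries), followed by CD8 T cells at 1197 ± 714 CPM (n = 16), monocyte-like cells at 551 ± 302 CPM (n = 16), NK-like cells at 299 ± 164 CPM (n = 16) and CD4 T cells without a Foxp3 UMI at 254 ± 173 CPM (n = 16). No neighbours in this order differed beyond the spread of both, and over pools CD8 T cells were above monocyte-like cells with PancVAX (1872 and 386.4 CPM) but not without it (509.8 and 674.3 CPM). Of all UMIs of the Ly6c1 and Ly6c2 pair, Ly6c2 took 99.8% in CD8 T cells, 99.4% in monocyte-like cells and 99.8% in plasmacytoid dendritic-like cells, but 3.87% in endothelial-like cells and 2.90% in fibroblast-like cells. Over endothelial-like libraries with at least 20 UMIs of the pair this share ran from 0% to 23.5%, and without the library that stood apart the share over all endothelial-like cells was 1.14% (27 Ly6c2 UMIs and 2334 of Ly6c1). Tumor-like cells were at 26.2% and their libraries at 0% to 50.2%. The pool of PancVAX with anti-PD-1 held 550 of the 785 Ly6c2 UMIs of tumor-like cells, beside 534 Cd8a and Cd8b1 UMIs, and without this pool the share was 12.6%.

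**Figure D2:**
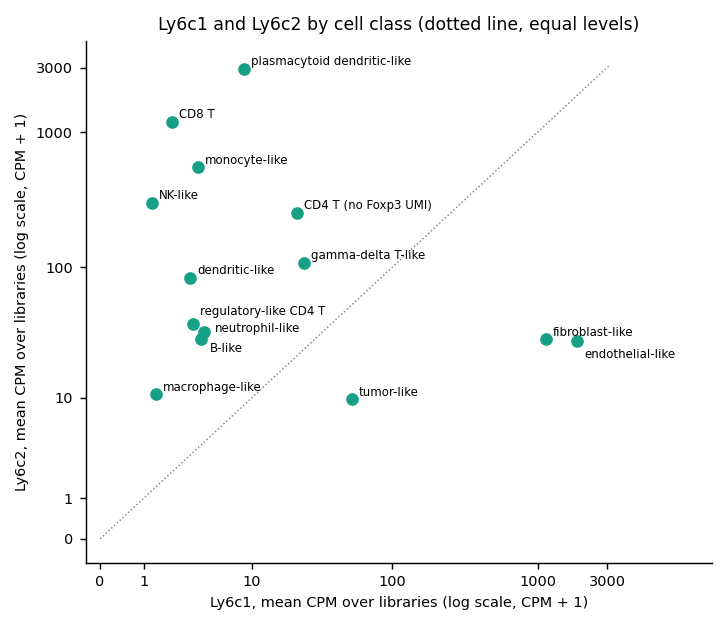
Mean CPM over libraries of Ly6c1 (horizontal, log axis of CPM + 1) against Ly6c2 (vertical, same scale), with 1 point per cell class and a dotted line of equal levels. Endothelial-like and fibroblast-like cells lie far to the right of the line, at 1858 and 1141 CPM of Ly6c1, tumor-like cells lie to the right as well, and lymphoid and myeloid classes lie above it.

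Ly6e was highest in plasmacytoid dendritic-like cells at 4195 ± 450 CPM (n = 4 libraries), the single step in its order larger than the spread of both neighbours. Regulatory-like CD4 T cells (2402 CPM), B-like cells (2387 CPM), endothelial-like cells (2318 CPM, or 2352 CPM without the library that stood apart) and macrophage-like cells (2155 CPM) followed, and CD8 T cells had the lowest mean of the ranked classes at 826 ± 137 CPM (n = 16). Fibroblast-like pools were at 607 to 914 CPM of Ly6e except that of PancVAX with anti-PD-1, at 1440 CPM. Over pools the lowest rank therefore depends on that pool. Ly6i, in contrast, was at 87.7 ± 70.03 CPM in monocyte-like cells and 51.8 ± 19.0 CPM in neutrophil-like cells (n = 16 each), at 9.4 CPM in dendritic-like cells and at 4.7 CPM or less in the other named classes. The 9854 CD8 T cells held 4 UMIs of Ly6i.

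Over the 16 classes, the members were not much alike. Pearson's r of log2(CPM + 1), a description over 16 class means that share their libraries, was 0.56 for Ly6a and Ly6c1, 0.21 for Ly6a and Ly6c2 and -0.36 for Ly6c1 and Ly6c2. Among 12270 other genes, the pattern most like Ly6c1 was that of Adh1 (r = 0.95), then Dlc1 and Amotl1. Closest to Ly6c2 was Me2 (r = 0.90), then B230307C23Rik and H2afy, and closest to Ly6i was Rasgrp4 (r = 0.95), then Tlr5 and AI839979. Ly6a was most like Slc43a3 (r = 0.82), then Plekha3, and Ly6e most like C330018D20Rik (r = 0.82), Dlst and Zdhhc17.

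In CD8 T cells, on which the family was selected, Ly6c2 was 1885, 1941, 1894 and 1768 CPM in the pools of PancVAX alone, with anti-PD-1, with anti-CTLA-4 and with both antibodies. It was 437, 657, 468 and 477 CPM in the pools of isotype control, anti-PD-1, anti-CTLA-4 and both antibodies without PancVAX. All 4 pools with PancVAX thus lay well above all 4 without, at 1872 ± 73.3 against 509.8 ± 99.8 CPM (SD, n = 4 and 4). Ly6a was 616 to 723 CPM with and 218 to 231 CPM without PancVAX, at means of 658.6 ± 45.6 and 222.9 ± 5.71 CPM. Ly6e was 942.5 ± 70.3 and 707.9 ± 43.7 CPM, also without overlap, and Ly6c1 was 3.04 ± 0.93 and 1.13 ± 0.69 CPM, from 71 and 21 UMIs. The level of Ly6i, from 3 and 1 UMIs, was too low to compare.

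**Figure D3:**
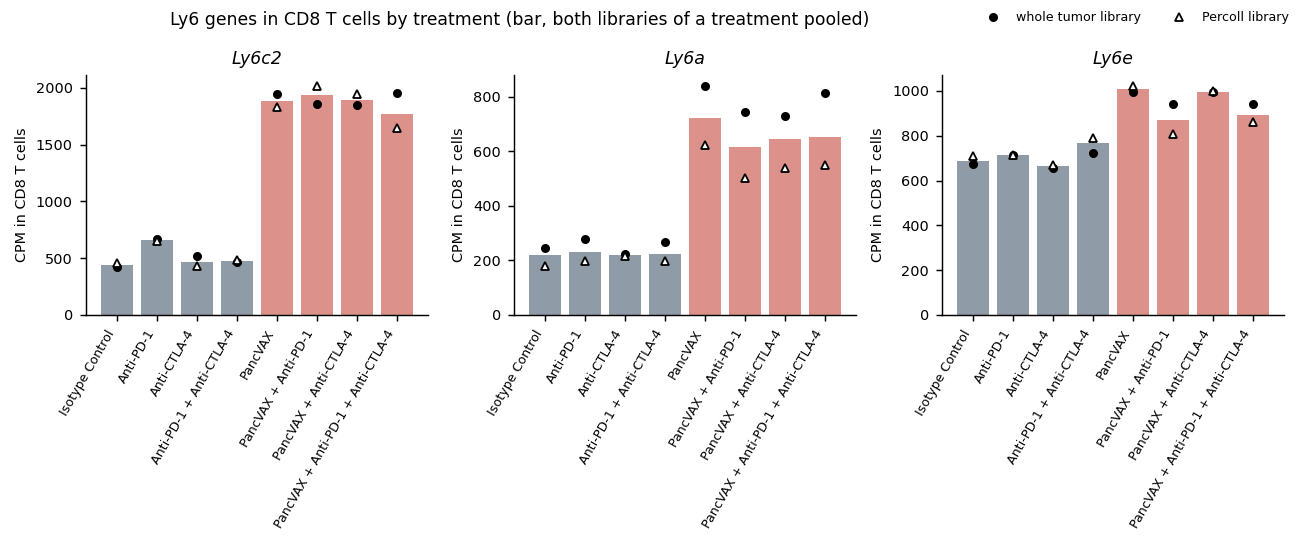
CPM of Ly6c2, Ly6a and Ly6e in CD8 T cells by treatment, with the pool of both libraries as a bar (red with and grey without PancVAX), whole-tumor libraries as filled circles and Percoll libraries as open triangles. For Ly6c2 the 4 pools with PancVAX sit between 1768 and 1941 CPM and the 4 without between 437 and 657 CPM.

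Many genes differed in this contrast: 12.2% of 10729 genes had an adjusted P below 0.05 with an absolute log2 change above 0.5, and 26.9% had pools that did not overlap. These shares are given as background, and nothing is read from them for the members, which were chosen on this contrast. Depth differed as well, with a median of 3409 UMIs per CD8 T cell with PancVAX and 4710.5 without. With every cell thinned to 1000 UMIs, Ly6c2 was detected in 63.4% ± 2.19 of CD8 T cells with and 20.6% ± 2.92 without PancVAX, Ly6a in 40.4% ± 2.03 and 16.3% ± 0.930, and Ly6e in 57.2% ± 2.65 and 46.4% ± 2.04 (SD, n = 4 and 4). In macrophage-like cells, which should lack Ly6c2 of T cells, the thinned share was 1.17% with and 0.385% without PancVAX.

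The states of CD8 T cells were clusters of the same transcripts, so levels between states are a description. Ly6c2 was lowest in exhausted-like cells at 157 ± 51.6 CPM (SD, n = 16 libraries). It was 1771 ± 302 CPM in naive-like cells (n = 16), 2149 ± 538 CPM in cytotoxic-like cells (n = 15), 2571 ± 238 CPM in a mixed cluster led by Krt83 and Ramp3 (n = 8) and 3116 ± 834 CPM in cells with an interferon signature (n = 13). These means take in both groups, and over the pools without PancVAX naive-like cells were above cytotoxic-like cells (1857 and 1718 CPM). Ly6a had the same order over libraries, with 325 ± 85.8 CPM in naive-like, 720 ± 207 CPM in cytotoxic-like and 1453 ± 493 CPM in interferon-signature cells, against 193 ± 54.2 CPM in exhausted-like cells. Both genes were detected in the same cell in 85.9% of interferon-signature cells, 68.7% of cytotoxic-like cells and 39.9% of naive-like cells, but in 11.2% of exhausted-like cells. In naive-like cells 32.2% held Ly6c2 without Ly6a, whereas in exhausted-like cells 25.1% held Ly6a without Ly6c2.

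**Figure D4:**
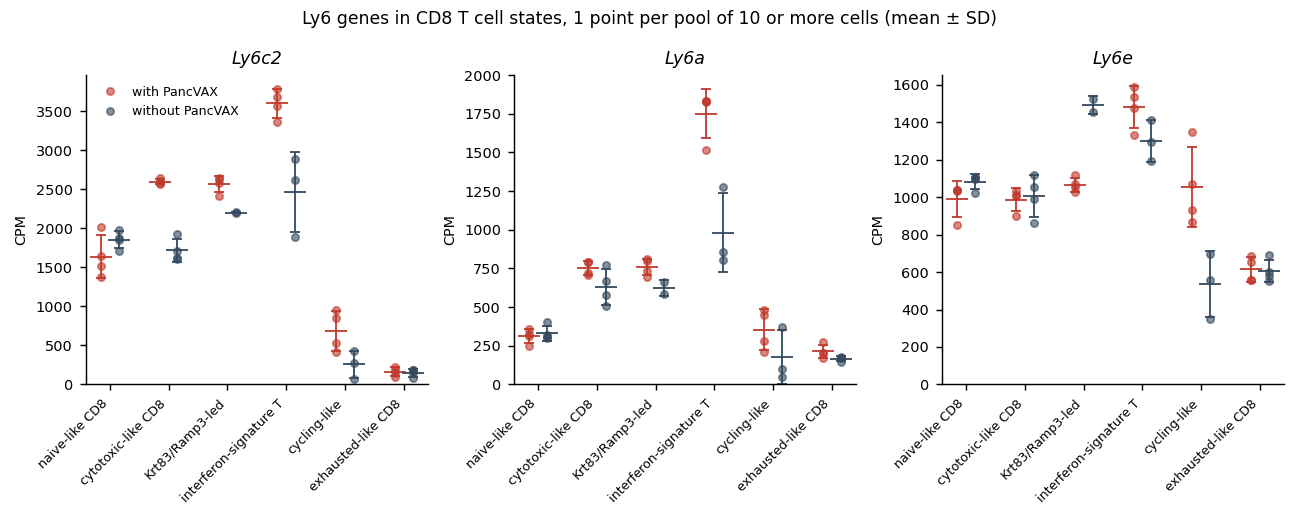
CPM of Ly6c2, Ly6a and Ly6e in 6 states of CD8 T cells, with 1 point per pool of at least 10 cells, red with and dark grey without PancVAX, and mean ± SD as bars. Ly6c2 is near 160 CPM in exhausted-like cells in both groups, and in cytotoxic-like cells it is 2600 CPM with and 1718 CPM without PancVAX.

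Within states, Ly6c2 in exhausted-like cells was 165 ± 57.5 CPM with and 149 ± 52.7 CPM without PancVAX (SD, n = 4 and 4), with overlapping pools. In naive-like cells it was 1639 ± 275 and 1857 ± 109 CPM, again with overlap. In cytotoxic-like cells, in contrast, the pools were apart, at 2600 ± 32.8 and 1718 ± 149 CPM, and so were those of interferon-signature cells, at 3603 ± 183 and 2466 ± 513 CPM (3 pools without PancVAX had at least 10 such cells). Ly6a in cytotoxic-like cells was 754 ± 45.1 and 630 ± 114 CPM with overlap, and in interferon-signature cells 1752 ± 157 and 980 ± 256 CPM without overlap. Ly6e overlapped between the groups in exhausted-like, cytotoxic-like, naive-like and interferon-signature cells. In cycling-like cells it was 1054 ± 213 CPM with and 535 ± 175 CPM without PancVAX (n = 4 and 3 pools), and in the Krt83 and Ramp3 cluster 1067 ± 37.5 and 1489 ± 48.0 CPM (n = 4 and 2), the pools without PancVAX holding 10 and 16 cells there. In that cluster Ly6c2 was 2422 to 2649 CPM with and 2197 and 2209 CPM without PancVAX. Ly6a there was 696 to 810 CPM with and 585 and 660 CPM without. Both overlapped in cycling-like cells. Pools that do not overlap were common in these states. Among genes with a mean of at least 10 CPM they were found for 9.49% in cytotoxic-like, 16.3% in interferon-signature and 11% in cycling-like cells and for 37.3% in the Krt83 and Ramp3 cluster, so nothing is read from the lack of overlap of a member.

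The make-up of the CD8 T cells differed with PancVAX. Exhausted-like cells were 22.0% ± 3.35 with and 74.2% ± 4.01 without it, and cytotoxic-like cells were 37.1% ± 4.40 and 4.89% ± 1.21 (SD, n = 4 and 4 pools). The Krt83 and Ramp3 cluster was 22.2% and 0.942%, interferon-signature cells 10.4% and 2.25%, and naive-like cells 5.39% and 16.0%. The difference between the groups was split arithmetically from the mean level and the mean share of each state, which give 1869 and 507 CPM for Ly6c2 and 655 and 223 CPM for Ly6a, close to the group means above. In this split the shares of states carried 1108 of the 1362 CPM for Ly6c2 (81.4%), 332 of the 432 CPM for Ly6a (76.9%) and 107% of the difference for Ly6e, whose levels within states went slightly the other way. This split rests on the clusters and was not tested.

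Interferon-stimulated genes and GPI anchor genes were counted in the same contrast, as lists chosen with earlier results of these data known, and are given as a description. Of 20 interferon-stimulated genes 19 had enough counts and 16 were higher with PancVAX past the threshold, with a median log2 change of 0.99 against 0.006 over all genes, of which the 12.2% given above passed in either direction. Ifit1, an antiviral effector, was higher by 2.34 (SE 0.16), the transcription factor gene Irf7 by 1.57 (SE 0.13) and Irf1 by 0.86 (SE 0.077). Of 26 GPI anchor genes 24 had enough counts and 1 was past the threshold, Piga, whose product takes part in the first step of anchor synthesis (log2 1.02, SE 0.21). Of 31 other Ly6 and uPAR domain genes 4 had enough counts, and Ly6g5b was lower (log2 -0.52, SE 0.12). In the 13 other classes, no gene of these lists passed the threshold with PancVAX. Only 0.151% of all gene and class combinations passed there, so nothing is read from this lack of calls.

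Outside CD8 T cells, PancVAX was tested in 13 classes with edgeR's quasi-likelihood test over all genes. Of 65 combinations of a member and a class 47 had enough counts to be tested and 1 passed, beside 0.151% of all gene and class combinations tested. At an unadjusted P below 0.05 there were 12 of 47, beside 9.27% of all. The median log2 change of the 47 was -0.02. The 47 include pairs with enough counts only through the group with PancVAX, such as Ly6c2 in regulatory-like and in endothelial-like cells. Ly6e, the broad member, passed in no class.

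The combination that passed was Ly6c2 in regulatory-like CD4 T cells, where 0.282% of 5321 genes passed. It was 68.8, 114, 39.4 and 69.3 CPM in the pools of PancVAX alone, with anti-PD-1, with anti-CTLA-4 and with both, and 0, 9.87, 0 and 0 CPM in the isotype control, anti-PD-1, anti-CTLA-4 and both antibodies without PancVAX. The groups did not overlap, as for 4.38% of these genes (72.9 ± 30.9 against 2.47 ± 4.93 CPM, SD, n = 4 and 4; edgeR log2 change 4.71, SE 0.48, adjusted P = 1.24e-06). These values came from 131 and 3 UMIs, so the gene had enough counts to be tested only through the group with PancVAX. Nothing is therefore read from its P value, and the change is given as a description. The UMIs also came from few cells, as 31 of the 900 regulatory-like cells held a Ly6c2 UMI and 11 cells held 100 of the 134 UMIs. Of these UMIs 112 lay in cells that also held a Cd8a or Cd8b1 UMI. The summed Cd8a and Cd8b1 level in this class was 109 CPM (67.1 to 165) with and 62.3 CPM (34.8 to 81.7) without PancVAX, with overlapping pools. A Cd8 UMI was held by 66 of 519 and 35 of 381 cells. The 21 cytotoxic-like CD8 markers summed to 6713 to 8673 CPM with and to 5100 to 7811 CPM without PancVAX, with Klrk1 and Klrc2 at 0 in the latter. The part of CD8 T cell transcripts in the Ly6c2 difference was not tested. Without the cells that held a Cd8 UMI, Ly6c2 was 15.2 ± 4.08 CPM in 453 cells with PancVAX, from 22 UMIs, and 0 in 346 cells without. These counts were too low for the fit. Over the fits that leave out 1 pool the change was 4.26 to 7.53, the latter without the anti-PD-1 pool, which held the 3 UMIs of the group without PancVAX, so that this value rests on the prior count.

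In NK-like cells Ly6a was 103 ± 30.1 CPM with and 38.9 ± 10.0 CPM without PancVAX (SD, n = 4 and 4). The lowest pool with PancVAX, at 69.6 CPM, lay above the highest without, at 51.7 CPM, but the change missed the threshold in edgeR (log2 1.29, SE 0.27, adjusted P = 0.055). It passed in edgeR over the 16 single libraries with preparation as a covariate (adjusted P = 0.043). That fit counts the 2 libraries of a treatment as separate replicates, so nothing is read from this P value. With classes set by gates on marker UMIs the change was -0.10. The groups of 4.77% of the 3710 genes tested in this class did not overlap. Summed Cd3d, Cd3e and Cd3g were 66.8 to 579 CPM with and 21.9 to 160 CPM without PancVAX. Their means of 206 and 92.5 CPM rest on the pool of PancVAX with anti-PD-1, without which the former was 81.4 CPM. Without cells that held a Cd3 or Cd8 UMI, Ly6a was 79.7 ± 21.9 and 39.4 ± 7.21 CPM (log2 0.94, SE 0.31, adjusted P = 0.33).

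Monocyte-like cells went the other way for the gene by which monocytes are typed. Ly6c2 was 379, 405, 420 and 341 CPM in the pools of PancVAX alone, with anti-PD-1, with anti-CTLA-4 and with both, and 1128, 604, 516 and 449 CPM in the isotype control, anti-PD-1, anti-CTLA-4 and both antibodies without PancVAX. The groups did not overlap, as for 4.4% of the 7549 genes tested in this class, and the isotype control was by far the highest. The change did not pass in edgeR (log2 -0.73, SE 0.16, adjusted P = 0.13), and without the isotype control pool it was -0.49 (adjusted P = 0.22). Without the pool of PancVAX with both antibodies it was -0.81 and passed (adjusted P = 0.026), as it did in DESeq2 (-0.72, adjusted P = 0.0085). Of all alternatives for Ly6c2 in this class, 5 gave a call and 12 did not. Ly6i was 60.5 ± 8.76 CPM with and 112 ± 57.6 CPM without PancVAX, also without overlap (log2 -0.81, SE 0.19, adjusted P = 0.16). The anti-PD-1 pool was at 198 CPM and the others without PancVAX at 77.0 to 91.5 CPM, and without it the change was -0.53 (adjusted P = 0.45). With classes set by gates on marker UMIs it was -0.16. In whole-tumor libraries alone its change was 0.02 and in Percoll libraries alone -1.33 (adjusted P = 0.053). For Ly6i 1 alternative gave a call, 15 kept the direction without a call and 1 reversed. The 20 monocyte markers summed to 15757 to 18208 CPM with and to 16904 to 22007 CPM without PancVAX, and their part in these values was not tested.

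In CD4 T cells without a Foxp3 UMI, from which cells with a Cd8 UMI were left out, Ly6c2 was 346 ± 140 CPM with and 175 ± 94.9 CPM without PancVAX, with overlapping pools (log2 0.94, SE 0.33, adjusted P = 0.17). In edgeR it passed in whole-tumor libraries alone (log2 2.97, SE 0.54, adjusted P = 0.0065). Those without PancVAX held only 23 to 39 cells each. Their Ly6c2 level was far below that of the Percoll libraries (Percoll minus whole tumor 3.22 ± 1.54 in log2, SD). The pools without PancVAX held 15 to 61 Ly6c2 UMIs over both preparations, so their whole-tumor level rests on few UMIs. Nothing is therefore read from the whole-tumor P value. Ly6c2 did not pass in Percoll libraries alone (log2 0.36, adjusted P = 0.77), and it passed without the pool of PancVAX with anti-CTLA-4 (log2 1.42, adjusted P = 0.0069). Without the anti-PD-1 pool the change was 0.43 (adjusted P = 0.66). Low levels of Ly6c2 were measured with and without PancVAX in tumor-like cells (21.1 and 2.86 CPM, without overlap as for 6.91% of genes, adjusted P = 0.24 in edgeR), macrophage-like cells (15.5 and 5.80 CPM, adjusted P = 0.29) and endothelial-like cells (43.6 and 1.65 CPM, adjusted P = 0.36), none past the threshold. The endothelial-like values came from 103 and 1 UMIs, so the gene had enough counts there only through the group with PancVAX. Nothing is read from that P value. In tumor-like, macrophage-like and endothelial-like cells Cd8a and Cd8b1 summed to 19.1 and 5.79, 12.2 and 5.57, and 40.3 and 66.9 CPM, and the part of CD8 T cell transcripts was not tested. Several of these means rest on 1 pool. Without the pool of PancVAX with anti-PD-1, tumor-like cells with PancVAX were at 13.4 CPM of Ly6c2 and 11.2 CPM of Cd8, and without the anti-CTLA-4 pool those without PancVAX were at 1.64 CPM of Ly6c2. Without the isotype control pool Ly6c2 was 3.51 CPM in macrophage-like and 0 in endothelial-like cells without PancVAX, and Cd8 in the latter was 43.0 CPM. Without the pool of PancVAX alone, Cd8 in endothelial-like cells with PancVAX was 15.5 CPM.

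In endothelial-like cells Ly6c1 was 366, 1938, 2111 and 1802 CPM in the pools of PancVAX alone, with anti-PD-1, with anti-CTLA-4 and with both, and 1357 to 2417 CPM in the 4 pools without PancVAX. The pool of PancVAX alone was the one with the library low in endothelial markers, and the others overlapped (edgeR log2 -0.43, SE 0.42, adjusted P = 0.85). In whole-tumor libraries alone the change was 0.16 (SE 0.19), without the pool of PancVAX alone it was 0.05 (SE 0.21), and without the isotype control pool it was -0.02.

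The share of cells with a Ly6 UMI was compared over the same pools outside CD8 T cells, with every cell thinned to 1000 UMIs, in 71 exact permutation tests (two-sided, 4 against 4 pools, smallest possible P = 0.029). With this number of tests and this smallest P, adjustment leaves almost no call possible (lowest adjusted P = 0.507), so nothing is read from the lack of calls. In regulatory-like cells the share with Ly6c2 was 2.89% ± 1.61 with and 0.272% ± 0.543 without PancVAX, and in monocyte-like cells 18.2% ± 2.56 and 23.2% ± 6.67 (SD, n = 4 and 4).

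No Ly6 gene passed the threshold with either antibody. Over 14 classes, CD8 T cells included, 51 of 70 combinations of a member and a class were tested for each antibody, and 0 passed for anti-PD-1 and 0 for anti-CTLA-4 in edgeR, beside 0.0248% and 0.00944% of all combinations tested. With shares this low, nothing is read from these counts of 0. The log2 changes of the 51 ran from -0.89 to 1.09 with anti-PD-1 and from -3.16 to 2.19 with anti-CTLA-4. At an unadjusted P below 0.05 there were 5 and 8 of 51, beside 5.44% and 5.06% of all, and DESeq2 gave 0 calls for both, with 5 and 5 below 0.05 unadjusted. In CD8 T cells the log2 change of Ly6c2 was 0.14 (SE 0.090) with anti-PD-1 and -0.12 (SE 0.090) with anti-CTLA-4, and that of Ly6a was -0.02 (SE 0.063) and -0.03 (SE 0.063). Ly6e moved by -0.02 (SE 0.067) and 0.03 (SE 0.067). In exhausted-like, cytotoxic-like and naive-like cells taken alone, 0 of 18 combinations of a member, a state and an antibody passed, at log2 changes of -0.17 to 0.44. The share of all genes that passed in these fits is not given, so nothing is read from this count.

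The 2 preparations were compared within treatments, with the treatment as a block, in 12 classes. Of 60 combinations of a member and a class 40 were tested and 3 passed in edgeR, beside 5.45% of all combinations tested, and 15 were below an unadjusted P of 0.05, beside 25.9% of all. The block is the treatment, and the sources do not say whether both libraries of a treatment came from the same suspension. The P values measure the spread of the paired differences over 8 treatments.

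Monocyte-like cells held both genes that were higher in Percoll libraries, in a class where 6.19% of genes passed. Ly6c2 was higher in Percoll in 8 of 8 pairs (log2 0.71, SE 0.095, adjusted P = 1.11e-05 in edgeR) and Ly6i in 7 of 8 (log2 1.00, SE 0.20, adjusted P = 0.0014). The difference of Ly6i in log2(CPM + 10) was 0.11 ± 0.13 in the 4 pairs with and 1.45 ± 0.66 in the 4 pairs without PancVAX (SD; exact permutation P of the difference 0.029, adjusted P = 0.643), whereas that of Ly6c2 was 0.59 ± 0.39 and 0.68 ± 0.34. The largest values of both were in Percoll libraries without PancVAX, 1438 CPM of Ly6c2 and 326 CPM of Ly6i. The 20 monocyte markers summed to 20124 CPM in Percoll and 16004 CPM in whole tumor, and the 26 macrophage markers to 18165 and 21220 CPM. The median mitochondrial share was 2.10% in Percoll and 3.38% in whole tumor. The part of these differences in the result was not tested. With classes set by gates on marker UMIs in place of clusters, neither gene passed (Ly6c2 log2 0.53, adjusted P = 0.23, and Ly6i log2 0.73, adjusted P = 0.38).

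In B-like cells Ly6a fell by 0.69 on the log2 scale in Percoll libraries (SE 0.15, adjusted P = 0.0066 in edgeR), lower in 7 of 8 pairs, in a class where 7.56% of genes passed. With classes set by gates on marker UMIs and no upper limits on UMIs and genes the change was -0.51 and lost its call (adjusted P = 0.15). The summed level of 10 T lineage markers was 299 CPM in Percoll and 330 CPM in whole tumor, and the mitochondrial share 3.27% and 5.44%. In CD8 T cells Ly6a was lower in Percoll in 8 of 8 pairs (log2 -0.44, SE 0.049, adjusted P = 3.23e-07) but stayed under the size limit of 0.5, as did Ly6a in regulatory-like (-0.37) and neutrophil-like cells (-0.34), Ly6i in neutrophil-like cells (0.46) and Ly6e in macrophage-like cells (0.27). Ly6c2 of CD8 T cells was near equal in both preparations (log2 -0.04, SE 0.049). In endothelial-like cells Ly6c1 was lower in Percoll (log2 -1.45, SE 0.39, adjusted P = 0.23) and Ly6a as well (-1.17, SE 0.32, adjusted P = 0.23), over 4 pairs. Without the treatment whose Percoll library stood apart these were -0.95 (adjusted P = 0.065) and -0.81 (adjusted P = 0.20). With a mitochondrial limit of 5% Ly6c1 was -0.86 and passed (adjusted P = 0.044).

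**Figure D5:**
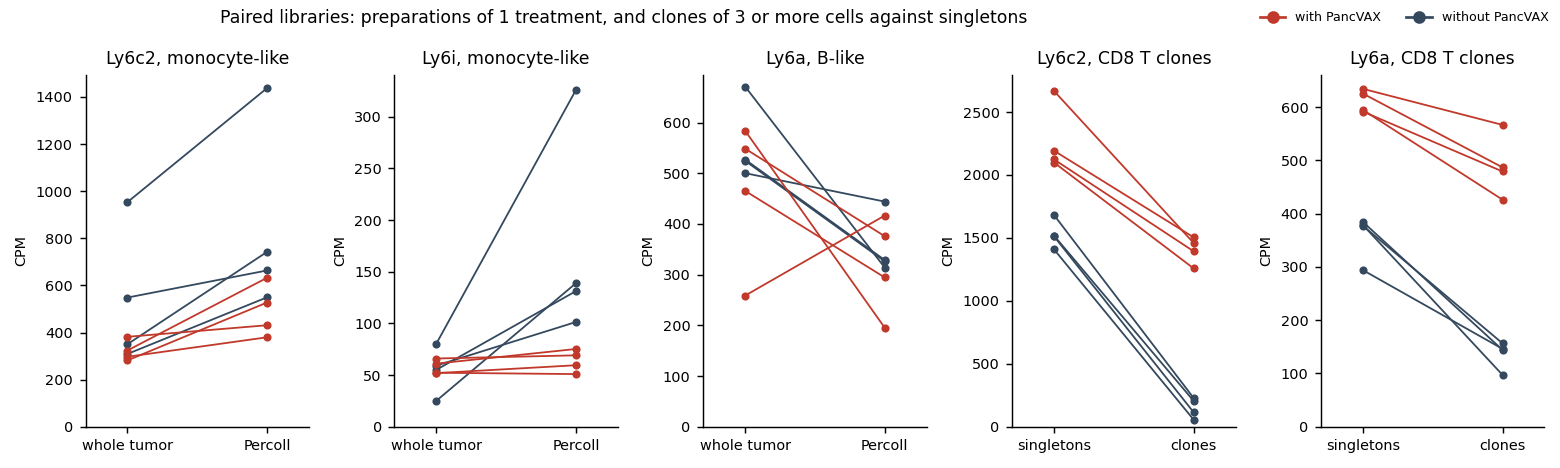
Paired values in CPM, red with and dark grey without PancVAX: Ly6c2 and Ly6i of monocyte-like cells and Ly6a of B-like cells in whole-tumor and Percoll libraries of 8 treatments, and Ly6c2 and Ly6a of CD8 T cells in singletons and in clones of at least 3 cells of 8 Percoll libraries. Ly6c2 of monocyte-like cells is higher in Percoll in 8 of 8 pairs, and both genes of CD8 T cells are lower in clones in 8 of 8.

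The lists were counted between preparations beside the same 5.45% of all combinations. Of the 31 other Ly6 and uPAR domain genes, 4 of 19 gene and class combinations tested rose in Percoll and 1 fell, all of them Plaur, the urokinase receptor gene. It rose in monocyte-like (log2 0.61), macrophage-like (0.69), neutrophil-like (0.62) and tumor-like cells (0.77) and fell in CD8 T cells by 0.87. Of 162 combinations of interferon-stimulated genes 6 rose and 2 fell. Irf1 rose in B-like cells (1.96), CD4 T cells (0.77) and CD8 T cells (0.51), Oasl1 in macrophage-like (1.21) and monocyte-like cells (0.66) and Isg15 in monocyte-like cells (0.52), while Ifit1 fell in CD8 T cells (-0.55) and Usp18 in neutrophil-like cells (-0.59). Of 132 combinations of GPI anchor genes 3 fell, Piga in CD8 T cells (-0.64) and Dpm3 in B-like (-0.61) and neutrophil-like cells (-0.50). Whether the effect of PancVAX differed between preparations was tested for 45 combinations outside CD8 T cells (exact permutation, two-sided, smallest possible P = 0.029), a design in which adjustment leaves almost no call possible (lowest adjusted P = 0.643). The smallest P was reached by Ly6i in monocyte-like cells and by Ly6c2 in CD4 T cells without a Foxp3 UMI, whose Percoll minus whole tumor difference of log2(CPM + 10) was 0.28 ± 0.42 with and 3.22 ± 1.54 without PancVAX (SD, n = 4 and 4).

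T cell receptor sequences of the 8 Percoll libraries gave the clonal size of 4410 CD8 T cells, of which 2597 were in clones of at least 3 cells with the same TRB chain and 1316 were singletons. All 3 expressed members were lower in expanded clones in each library, as were 3.75% of 10729 genes, while 7.32% were higher in each. Ly6c2 was 777.7 ± 675 CPM in clones and 1901 ± 439 CPM in singletons (SD, n = 8 libraries; log2 of CPM + 10 -2.05 ± 1.55), Ly6a 313 ± 194 and 485 ± 139 CPM (-0.83 ± 0.61) and Ly6e 705 ± 127 and 1043 ± 87.0 CPM (-0.57 ± 0.23). Each was lower in 8 of 8 libraries, with an exact sign-flip permutation P of 0.0078, the smallest that 8 pairs can give, and an adjusted P of 0.039 over 15 tests. Ly6c1 (1.34 and 2.76 CPM) did not pass. The cells compared are CD8 T cells of the pools on which Ly6c2 and Ly6a were chosen, so these tests are not independent of that choice.

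The make-up of the 2 kinds of cells differed, as 66.9% of cells in clones were exhausted-like and 16.9% cytotoxic-like, against 17.6% and 28.6% of singletons, and 25.3% of singletons were naive-like against 0.347% of cells in clones. Within cytotoxic-like cells, in the 4 libraries with enough cells, all with PancVAX, Ly6c2 was 2471 ± 145 and 2644 ± 186 CPM in clones and singletons (log2 -0.10 ± 0.077; 4 pairs cannot give an exact P below 0.125). Ly6a went the other way there, at 677 ± 99.7 and 578 ± 70.7 CPM, higher in clones in 3 of 4 libraries (exact P = 0.25), and Ly6e was 926 ± 118 and 1026 ± 142 CPM, lower in 4 of 4. Within exhausted-like cells Ly6c2 was 139 ± 69.2 and 195 ± 59.6 CPM, lower in 5 of 8 libraries (exact P = 0.19, adjusted P = 0.28). Ly6a was 159 ± 41.8 and 247 ± 159 CPM there, lower in 7 of 8 (exact P = 0.070, adjusted P = 0.15). Ly6e was 603 ± 67.6 and 744 ± 184 CPM, lower in 7 of 8 (exact P = 0.023, adjusted P = 0.088). Across all CD8 T cells the log2 difference of Ly6c2 lay between -0.54 and -0.87 in the 4 libraries with PancVAX and between -2.83 and -4.42 in the 4 without, a description since PancVAX in CD8 T cells was used to choose the gene. In libraries without PancVAX 96.2% of the cells in clones were exhausted-like, against 39.5% with it.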

How the data were processed

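Counts of UMIs per gene and cell for 16 libraries were deposited by the authors, made from 10x 5′ reads with Cell Ranger 4.0.0 on mm10 per the labels, and each cell was assigned to its library by the number that ends its barcode, matched to the library number in the sample descriptions. T cell receptor contigs of 8 Percoll libraries were used for clones. Cells with 200 to 3000 genes, 1000 to 10000 UMIs, under 10% mitochondrial UMIs and no hemoglobin UMI were kept, as in the study's methods. Cells were clustered (scanpy 1.11.5, 2000 variable genes, 25 principal components, batch correction with a compact reimplementation of Harmony) and named from marker lists. Doublets were marked with Scrublet and left out only as an alternative, and the caller marked almost none in 2 libraries, where it did not work. Counts were summed per class and pool, leaving out pools with under 10 cells, filtered on low counts (filterByExpr), scaled by TMM and fitted with edgeR 4.0.16 (quasi-likelihood) in R 4.3.3 with the 3 treatments as terms, or with the treatment as a block between preparations. A call needs a Benjamini-Hochberg adjusted P below 0.05 over all genes of the fit and an absolute log2 change above 0.5. DESeq2 1.42.0, other filters, gates on marker UMIs, single preparations and leaving out each pool were alternatives. The fits were tested on simulated data. Single values were compared by exact permutation tests. Genes named beside the members came from lists, or are the 3 genes with the highest r, of which 1 is not reported here. The members and all lists were chosen with earlier results of these data known.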

Additional observations from a re-analysis of the deposited data

Results flagged for a closer look

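In 119 groups of 4 pools, 15 held a pool whose gap to the nearest other exceeded Dixon's 95% critical value, which chance gives in about 1 of 20 groups. For Ly6a these were B-like cells of PancVAX + Anti-CTLA-4 (467.9 CPM, others 363 to 372), fibroblast-like cells of Anti-CTLA-4 (3736, others 2036 to 2256) and interferon-signature T cells of PancVAX + Anti-PD-1 (1516, others 1825 to 1835). For Ly6c1 it was fibroblast-like cells of PancVAX + Anti-PD-1 (518.5 CPM, others 1304 to 1450), the same pool in which Ly6e was high (1440 CPM, others 718 to 798).

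For Ly6c2 they were regulatory-like cells of Anti-PD-1 (9.87 CPM from 3 UMIs, others at 0), B-like cells of the isotype control (65.0 CPM, others 10.2 to 18.0), plasmacytoid dendritic-like cells of PancVAX with both antibodies (3798 CPM in 15 cells, others 1698 to 1940) and endothelial-like cells of the isotype control (6.61 CPM from 1 UMI, others at 0). For Ly6e they were neutrophil-like cells of both antibodies without PancVAX (951 CPM, others 1078 to 1086), tumor-like cells of PancVAX + Anti-CTLA-4 (2942, others 1919 to 2076), and naive-like CD8 T cells of PancVAX with both antibodies (849, others 1034 to 1040.0) and of Anti-PD-1 (1023, others 1096 to 1107). Ly6i was high with Anti-PD-1 in monocyte-like cells (198 CPM, others 77.0 to 91.5) and in neutrophil-like cells (79.8 CPM, others 41.7 to 44.1).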

How the results depend on the processing

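Of the alternatives to values that answer a comparison, 84 stayed close to the main value, with a similar count of calls or a move below the spread. Of the rest, 10 gave fewer calls, 9 gave more and 2 moved by more than the spread. Counts of 3 and 4 calls were taken as close, and the 84 include permutation tests that could hardly give a call. For single genes, 184 alternatives kept direction and side of the threshold, 30 lost a call, 15 gained one and 6 reversed. The number of Ly6 genes called with PancVAX outside CD8 T cells (1) was 2 in DESeq2 and 8 with no filter on low counts. It was 3 over 16 libraries, in a fit that counts the 2 libraries of a treatment as separate replicates. The number was 1 to 3 when a pool was left out and 0 with gates without upper limits. It was also 0 without regulatory-like cells that held a Cd8 UMI and NK-like cells that held a Cd8 or Cd3 UMI. There Ly6c2 of regulatory-like cells had too few counts for the fit, so this 0 is not a lost call of that gene. This alternative was chosen after seeing the data. So were the CD8 states for the antibodies and the left-out endothelial-like library, tumor-like pool and pools behind marker means. With no filter, anti-PD-1 gave 2 calls, anti-CTLA-4 3 and the preparations 8, and the cause was not tested. Leaving out a pool gave 0 calls for either antibody and 3 to 4 for the preparations. Leaving out a library gave 0 calls in clones, since 7 pairs cannot pass the adjustment. In CD8 T cells with gates and no upper limits the log2(CPM + 10) difference was 1.25 for Ly6a (main 1.52) and -0.033 for Ly6c1 (main 0.23). Values that reversed were Ly6a in NK-like cells (-0.10 with gates, -0.21 without upper limits), Ly6i in monocyte-like cells (0.016 in whole tumor), and in endothelial-like cells Ly6c1 (0.16 in whole tumor, 0.048 without the PancVAX pool, and -0.78 to 0.048 over all left-out pools) and Ly6a (0.17 in whole tumor). Without the replicate block, Ly6c2 in monocyte-like cells was 0.67 between preparations (adjusted P = 0.096 in edgeR) and lost its call. Ly6c2 in regulatory-like cells had no value under gates or in whole tumor alone. Levels under a few CPM rest on few UMIs.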
